A study of Mus musculus with 9 samples.

Results

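Accessible chromatin was followed at 9 genes that write, copy or remove DNA methylation while mouse embryonic fibroblasts (MEFs) were reprogrammed to induced pluripotent stem cells (iPSCs). The genes were Dnmt1, Uhrf1, Dnmt3a, Dnmt3b, Dnmt3l, Tet1, Tet2, Tet3 and Tdg, taken by name from the 37273 genes of the GENCODE annotation for the mm9 genome build. All 9 were found, and each locus was read from 10 kb upstream of the gene start to the gene end, with the 3 kb upstream of every annotated transcript start (TSS) counted as promoter.

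Methylation of cytosine in CpG dinucleotides is copied to the new strand after replication by the maintenance methyltransferase Dnmt1, which Uhrf1 brings to hemimethylated DNA. New methylation is set by Dnmt3a and Dnmt3b, and Dnmt3l is a catalytically inactive cofactor of both that is known from germ cells and pluripotent cells. The Tet enzymes oxidize 5-methylcytosine, and the glycosylase Tdg excises the later oxidation products so that base excision repair can restore an unmethylated cytosine. In reprogramming the Tet enzymes and Tdg are known for their part in clearing methylation from pluripotency genes, and Tet1, Tet2, Dnmt3b and Dnmt3l are known to be transcribed in pluripotent cells.

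The MEFs carried an Oct4-GFP reporter and were infected with pMXs retroviruses for Oct4, Sox2, Klf4 and c-Myc (OSKM), which all libraries after D0 share. ATAC-Seq, in which the Tn5 transposase cuts accessible DNA, was deposited for D0 MEFs, for D3 cells, for Thy-1-negative cells of days 6 and 9 (D6T- and D9T-), for SSEA-1-positive cells of days 12 and 16 (D12S+ and D16S+) and for iPSCs. At day 6 there were also cells, labelled Thy-1-negative, that had received an siRNA against the histone variant H3.3 (D6 siH3.3) or a non-targeting siRNA (D6 siNT) at the beginning of reprogramming. Each of the 9 conditions had 1 library, so no difference below has a replicate check, no test between conditions was possible, and every interval covers counting error only. D0, D3 and iPSCs were not sorted while D6T-, D9T-, D12S+ and D16S+ were, so stage and sorting cannot be told apart, and in such bulk cells a change in the mix of cells cannot be told apart from a change in accessibility per cell.

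The libraries held 13213117 (D9T-) to 31714845 (D0) tags and 36708 (D9T-) to 133132 (D6T-) accessible regions. The value given for a promoter or element is the highest pileup (overlapping tags at a summit) of its regions per 1000000 tags of the library (CPM). The weakest pileup called was 0.331 CPM (D3) to 0.530 CPM (D9T-), and a weaker opening was not detectable at this depth. The 7 pluripotency markers checked had promoter regions for 2 at D0, 0 in D9T-, 6 in D12S+ and 7 in D16S+ and iPSCs, while the 7 fibroblast markers had 6 at D0 and still 5 in iPSCs. The Thy1 promoter had no region in D6T-, D9T-, D6 siH3.3 or D6 siNT, all labelled Thy-1-negative. Its D0 value was near the detection limit, so that the fold from D0 to D6T- was bounded only at 0.912. It had a region in D12S+ and in iPSCs, and all 7 fibroblast markers had regions in D12S+ and D16S+. Fut4 was the pluripotency marker without a region in D12S+.

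Scale differed between libraries over the whole genome. The median promoter of protein-coding genes with a region measured 0.820 CPM at D0, 2.71 CPM in D6T- and 1.02 CPM in iPSCs. D6 siNT, from the same day as D6T-, had a median of 1.19 CPM. A CPM value is therefore read here beside the median of all promoters, or against another element of the same library.

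The sequences that carry the stage-specific openings described below are shown here, read from the NCBIM37 (mm9) assembly on the strand of the gene, 200 bases around the strongest summit or 200 bases before the gene start. Capitals mark matches to the motifs searched on both strands, which were AP-1 (TGANTCA), Oct (ATGCAAAT), Oct-Sox (ATTGTNATG), Klf (GGGNGTGG), CTCF (AGGTGGCAG), Nrf1 (GCGCATGC), E2F (TTTCCCGC or TTTGGCGC) and CRE (TGACGTCA). The first set shows 4 of the 5 intron elements that were called in D12S+, D16S+ and iPSCs and in none of the 4 earlier libraries. They lie at chr3:133197188-133197387, chr6:83371844-83372043, chr10:62355557-62355756 and chr2:153477425-153477624. The other, 25.4 kb after the Tet2 start, is not printed. The Dnmt3b values were near the detection limit of D9T-, so an opening of that element there could have gone undetected.
Tet2 intron, 10.1 kb after the gene start: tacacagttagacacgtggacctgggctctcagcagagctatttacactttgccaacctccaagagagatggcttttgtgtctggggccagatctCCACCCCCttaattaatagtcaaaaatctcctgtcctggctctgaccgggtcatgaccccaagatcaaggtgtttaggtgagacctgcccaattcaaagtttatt
Tet3 intron, 19.7 kb after the gene start: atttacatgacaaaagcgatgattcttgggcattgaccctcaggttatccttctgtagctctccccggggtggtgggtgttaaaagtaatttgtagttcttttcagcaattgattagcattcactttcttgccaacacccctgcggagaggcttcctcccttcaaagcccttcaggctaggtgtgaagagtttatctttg
Tet1 intron, 6.2 kb after the gene start: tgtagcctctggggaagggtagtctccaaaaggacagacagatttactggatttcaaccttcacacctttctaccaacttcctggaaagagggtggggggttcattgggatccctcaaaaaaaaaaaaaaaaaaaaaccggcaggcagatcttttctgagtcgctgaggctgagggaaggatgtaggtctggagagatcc
Dnmt3b intron, 2.3 kb after the gene start: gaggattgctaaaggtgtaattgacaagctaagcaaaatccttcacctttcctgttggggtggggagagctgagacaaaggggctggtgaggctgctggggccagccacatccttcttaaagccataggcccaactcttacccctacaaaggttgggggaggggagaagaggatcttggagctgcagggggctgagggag
Of these 4 windows only that of Tet2 held a match, to the Klf motif in reverse (CCACCCCC). They held 0 to 3 CpG dinucleotides each.

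The second set shows 3 of the 4 elements that were accessible in all 4 early libraries and had no region in D16S+ or iPSCs, at chr10:62313833-62314032, chr6:83392617-83392816 and chr6:83385240-83385439.
Tet1 intron, 47.9 kb after the gene start: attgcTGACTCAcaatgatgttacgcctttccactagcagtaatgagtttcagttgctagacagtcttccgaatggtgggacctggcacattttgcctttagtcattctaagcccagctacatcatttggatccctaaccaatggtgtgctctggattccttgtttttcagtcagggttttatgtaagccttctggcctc
Tet3 upstream, 1.0 kb before the gene start: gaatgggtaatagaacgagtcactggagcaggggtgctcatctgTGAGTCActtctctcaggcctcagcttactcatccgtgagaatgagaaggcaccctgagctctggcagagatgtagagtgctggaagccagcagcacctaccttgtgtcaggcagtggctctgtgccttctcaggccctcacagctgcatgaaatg
Tet3 intron, 6.3 kb after the gene start: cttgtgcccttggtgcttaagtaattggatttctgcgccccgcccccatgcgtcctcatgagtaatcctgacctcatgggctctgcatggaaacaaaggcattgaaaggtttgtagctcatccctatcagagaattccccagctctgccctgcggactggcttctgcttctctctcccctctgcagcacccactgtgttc
The Tet1 and the upstream Tet3 window each held an AP-1 match, the letters bound by Fos and Jun factors. The Tet3 intron window held none of the motifs, nor did that of the element not printed, 2.0 kb before the Tet3 start. The third set is the sequence before the start of Dnmt1 (chr9:20757318-20757517) and of Tdg (chr10:82092373-82092572), which were accessible in all 9 libraries.
Dnmt1, 200 bases before the start: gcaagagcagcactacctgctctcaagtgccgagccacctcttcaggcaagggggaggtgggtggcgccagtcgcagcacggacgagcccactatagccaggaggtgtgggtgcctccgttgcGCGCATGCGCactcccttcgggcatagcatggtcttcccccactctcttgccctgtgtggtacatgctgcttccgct
Tdg, 200 bases before the start: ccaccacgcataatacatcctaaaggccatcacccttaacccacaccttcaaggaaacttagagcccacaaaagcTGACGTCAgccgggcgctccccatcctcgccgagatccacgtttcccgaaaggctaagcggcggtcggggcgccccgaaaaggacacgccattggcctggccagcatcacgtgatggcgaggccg
The Dnmt1 letters held a palindrome in which the Nrf1 motif matches on both strands, and those of Tdg a CRE match, with 11 and 17 CpG dinucleotides.

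A region overlapped a promoter window of all 9 genes in 7 libraries and of 8 genes in D9T- and D6 siNT, where Dnmt3l had none. Among all 22367 protein-coding genes the share with a promoter region was 58.0% at D0, 67.8% at D3, 68.3% in D6T-, 50.4% in D9T-, 63.0% in D12S+, 63.0% in D16S+ and 63.9% in iPSCs. It was 54.3% in D6 siH3.3 and 54.8% in D6 siNT. These counts take any annotated TSS of a gene, of which Dnmt3a has 18, and so rest in part on internal starts. With the window of the most upstream TSS alone, 6 of the 9 genes had a region at D0, without Dnmt3a, Dnmt3l and Tet1. The shares of all genes above are for any TSS and are no background for this count. In strength the promoters of the 9 genes were ordinary, since only 3 of the 9 lay above the median promoter at D0 and in iPSCs and 5 in D6T-.

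Dnmt1 lies on the minus strand of chromosome 9 (20711650 to 20757317) and has 1 annotated start. Its promoter region, which covers the start, measured 0.820 CPM at D0, 2.45 at D3, 3.74 in D6T-, 1.29 in D9T-, 2.84 in D12S+, 3.45 in D16S+ and 0.978 in iPSCs, and 1.45 in D6 siH3.3 and 0.780 in D6 siNT. It was high at D3, D6T-, D12S+ and D16S+ and close to its starting level in iPSCs. The median promoter was also high in those 4 libraries, at 1.65, 2.71, 1.93 and 1.84 CPM, so the CPM course follows the scale of the libraries in part. Ranks were taken among the protein-coding promoters with a region in the same library. This removes a shared shift in scale but not the difference in how many promoters were called. By rank Dnmt1 stood at percentile 48.8 at D0, 84.4 in D16S+ and 47.1 in iPSCs.

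Uhrf1, the hemimethylated-DNA reader, lies on chromosome 17 (56442744 to 56462909) on the plus strand, and its start region had its summit 0.9 kb inside the gene, in an intron of the annotation. It measured 0.946 CPM at D0, 1.98 at D3, 3.46 in D6T-, 1.29 in D9T-, 2.44 in D12S+, 2.74 in D16S+ and 1.84 in iPSCs, with 0.911 in D6 siH3.3 and 1.29 in D6 siNT. Its rank was percentile 60.0 at D0, at most 72.7 (D16S+) in the time course up to there, and highest in iPSCs, at 88.9. The region also overlaps the promoter window of the neighbouring Arrdc5 on the other strand, and the pair cannot be told apart.

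Dnmt3a lies on chromosome 12 (3806007 to 3914443, plus strand) and had 18 annotated TSSs. Its start region had its summit 0.4 kb inside the gene, and in 8 of the 9 libraries it counted through a TSS downstream of the gene start. Its promoter measured 0.473 CPM at D0, 1.22 at D3, 2.29 in D6T-, 0.984 in D9T-, 1.76 in D12S+, 2.03 in D16S+ and 0.865 in iPSCs, with 0.750 in D6 siH3.3 and 0.597 in D6 siNT. At D0 it stood at percentile 9.67, the lowest of the 9 promoters there, and in D16S+ at 55.3. The element at the gene start held a higher D0 region outside the promoter windows, at 0.536 CPM (17 tags). The internal start cluster 85.7 kb into the gene, where the shorter transcripts begin, had a region 85.5 kb after the gene start at 0.728 CPM at D3, 0.748 in D6T-, 1.14 in D12S+, 1.37 in D16S+ and 0.790 in iPSCs, and none there at D0 or in D9T-. At D0 its window held only the separate element at 84.2 kb, with 0.410 CPM (13 tags). The region at 85.5 kb overlaps the promoter window of the neighbour AC159324.1.

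Dnmt3b (chromosome 2, 153475186 to 153513466, plus strand) and Dnmt3l (chromosome 10, 77504692 to 77526367, plus strand) complete the de novo group. The Dnmt3b promoter measured 0.568 CPM at D0, 1.06 at D3, 1.78 in D6T-, 0.833 in D9T-, 1.31 in D12S+, 0.803 in D16S+ and 0.602 in iPSCs, with 0.750 in D6 siH3.3 and 0.689 in D6 siNT. Its D0 value came from a region near an internal TSS 19.9 kb into the gene, and the region at the gene start measured 0.536 CPM there. Dnmt3b stood between percentile 11.5 (D16S+) and 30.7 (D6T-) in every library, so its promoter ranked low also in iPSCs.

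The place of the Dnmt3l promoter signal differed between stages, on few tags. Before the cluster of internal TSSs 7.89 kb into the gene, regions were called in D12S+ (0.681 CPM), D16S+ (0.708 CPM) and iPSCs (0.752 CPM) and in no other library. The D12S+ value came from an element 6.4 kb after the start, those of D16S+ and iPSCs from another at 7.7 kb. The later cluster, 12.9 kb into the gene, went the other way, with 0.536 CPM at D0, 1.39 at D3, 1.87 in D6T-, 0.852 in D12S+ and 0.489 in iPSCs, and no region in D16S+. The TSSs at the gene start had a region only at D3 (0.430 CPM, 13 tags), which lay 0.4 kb inside the gene. In an intron, 1.7 kb after the start, a further element reached 0.941 CPM in iPSCs, but it lies over the start of Aire, a gene on the opposite strand.

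Tet1 (chromosome 10, 62267318 to 62361866, minus strand) had no promoter region at its gene start or at its TSS 19.1 kb into the gene in any library. The promoter value assigned to it came in all 9 libraries from a region at an internal TSS 33.8 kb into the gene and was 0.788 CPM at D0, 1.36 at D3, 2.29 in D6T-, 0.681 in D9T-, 1.65 in D12S+, 1.23 in D16S+ and 0.828 in iPSCs, with 0.803 in D6 siH3.3 and 0.826 in D6 siNT. The nearest region inside the gene, 0.9 kb after the start (chr10:62360885-62361340), was called in iPSCs alone, at 0.828 CPM (22 tags). The region shared by the 7 time-course libraries that lay nearest to the start was 11.7 kb into the gene, at 0.529 to 1.12 CPM.

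Tet2 (chromosome 3, 133126643 to 133207354, minus strand) had its region on the gene start in all libraries. It measured 0.883 CPM at D0, 2.65 at D3, 3.93 in D6T-, 2.95 in D9T-, 2.50 in D12S+, 2.60 in D16S+ and 1.43 in iPSCs, with 2.41 in D6 siH3.3 and 1.93 in D6 siNT. From D3 on it ranked at percentile 65.9 or above in every library, against 54.6 at D0.

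Tet3 (chromosome 6, 83312367 to 83391672, minus strand) measured 0.631 CPM at D0, 1.98 at D3, 3.13 in D6T-, 1.89 in D9T-, 1.59 in D12S+, 1.32 in D16S+ and 1.35 in iPSCs, with 1.34 in D6 siH3.3 and 1.29 in D6 siNT. At D0 the highest region was not the one on the start (0.536 CPM) but one 1.0 kb upstream. That element measured 0.631 CPM at D0, 1.62 at D3, 2.48 in D6T-, 0.681 in D9T- and 0.965 in D12S+. A second one, 2.0 kb upstream, measured 0.378 to 2.66 CPM in the same 5 libraries, and both were called in neither D16S+ nor iPSCs. They lie within the lincRNA gene B230319C09Rik, which is transcribed away from Tet3 and whose promoter window the Tet3 start region overlaps.

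Tdg (chromosome 10, 82092573 to 82113544, plus strand) had the strongest promoter of the group at D0, D3, D6T- and D12S+ and in D6 siH3.3 and D6 siNT. It measured 1.26 CPM at D0, 3.94 at D3, 6.26 in D6T-, 2.95 in D9T-, 3.12 in D12S+, 2.03 in D16S+ and 0.941 in iPSCs, with 2.62 in D6 siH3.3 and 2.89 in D6 siNT. Its rank declined late, from percentile 79.7 at D0 and 89.4 at D3 to 55.3 in D16S+ and 43.9 in iPSCs.

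**Figure D1:**
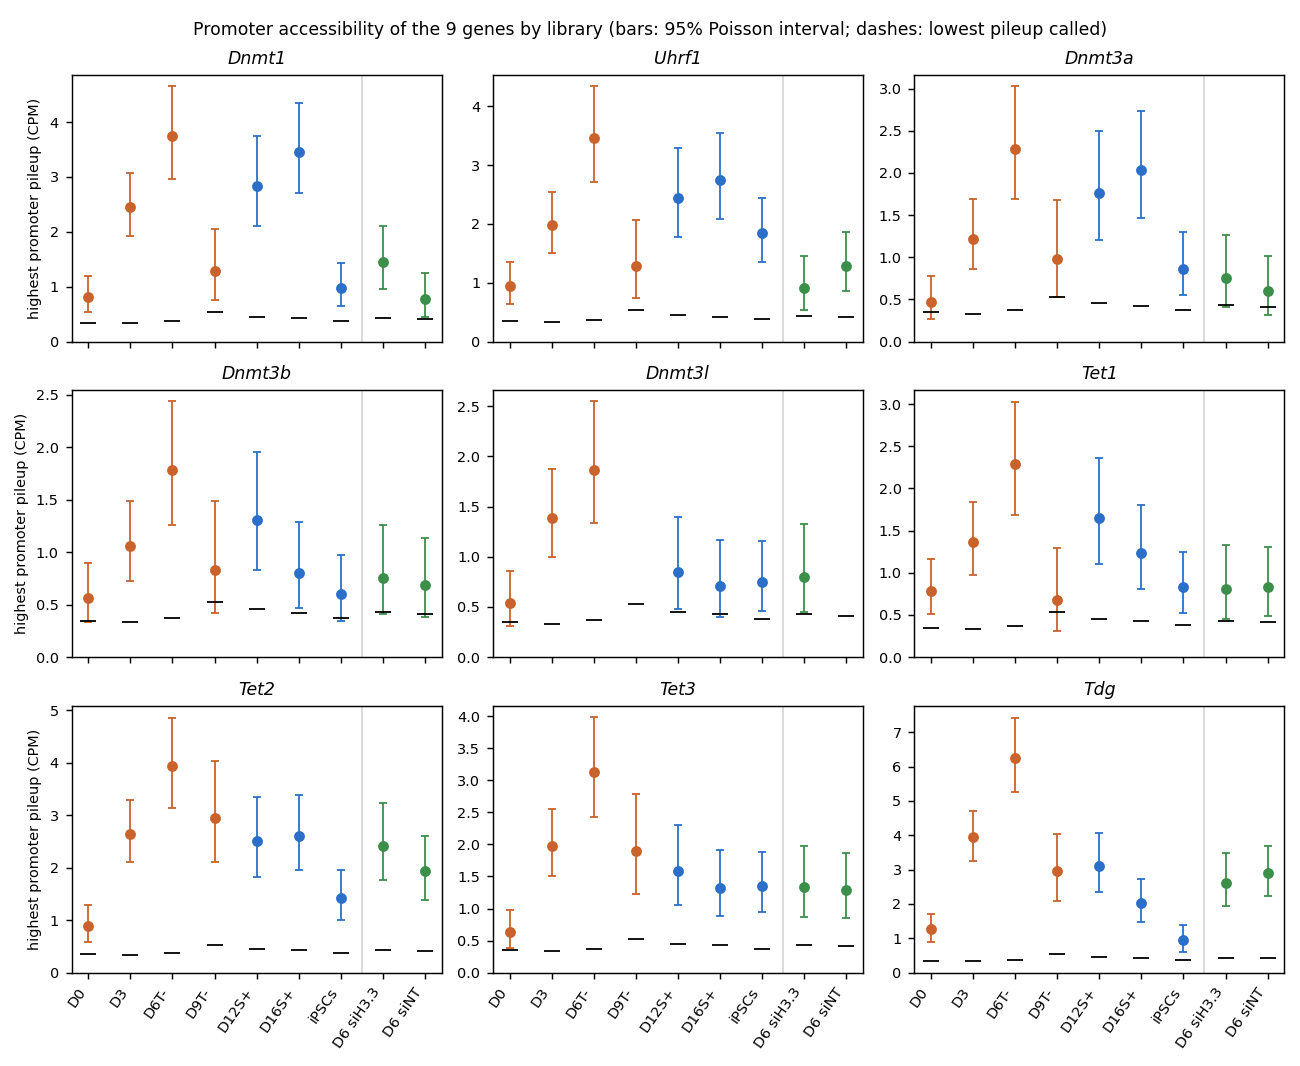
Highest promoter pileup of each of the 9 genes (CPM, y axis, starting at 0) in the 9 libraries (x axis, 1 library each); orange marks D0 to D9T-, blue D12S+ to iPSCs and green the siRNA libraries, bars are 95% Poisson intervals of the tag count and black dashes the lowest pileup called in the library. Every gene peaks in D6T-, from 1.78 CPM (Dnmt3b) to 6.26 CPM (Tdg), and Dnmt3l has no point in D9T- and D6 siNT.

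From D0 to D6T- all 9 promoters rose at least 2-fold in CPM, by 2.91-fold (Tet1, 95% interval 1.76 to 4.91) to 4.97-fold (Tdg, 3.47 to 7.26, and Tet3, 2.98 to 8.64). The same was true of 84.5% of the 15735 protein-coding promoters with a region in either library (0.0953% were at least 2-fold lower), with a median of 3.80-fold, so this count is near the background. Relative to that median the genes lay between -0.39 (Tet1) and 0.39 (Tet3 and Tdg) on the log2 scale, and when the libraries were scaled to the promoters open in all 9 of them, none of the 9 rose 2-fold and Uhrf1, Dnmt3b, Dnmt3l and Tet1 turned lower. D6 siNT gives a yardstick from the same day: from D6T- to D6 siNT all 9 were at least 2-fold lower, as were 78.2% of all promoters (0.00654% were higher), with a median log2 change of -1.42. Among the 8 genes with a region in both libraries the largest fall there was that of Dnmt1, from 3.74 to 0.780 CPM, which is 0.209-fold (0.116 to 0.355) and lay at percentile 2.33 of all changes. Dnmt3l, with no region in D6 siNT, was at 0.221-fold or less.

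From D6T- to D12S+ the promoters of Dnmt3l (0.455-fold, 0.234 to 0.843) and Tdg (0.498-fold, 0.357 to 0.687) fell at least 2-fold and none rose. Tet3 lay just outside that limit at 0.508-fold (0.314 to 0.800). Of all promoters 20.0% fell and 1.30% rose, and the median was 0.654-fold, so the number that fell is near the background. Dnmt1 (0.759-fold), Uhrf1 (0.706-fold), Dnmt3a (0.768-fold), Dnmt3b (0.735-fold) and Tet1 (0.719-fold) lay above this median. Their counting intervals all include both 1 and 0.654, so none differed from the shift of all promoters beyond counting error. The Dnmt3l value compares the same start cluster, 12.9 kb into the gene.

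Between the end points, D0 and iPSCs, the Tet3 promoter was 2.15-fold higher in iPSCs (1.21 to 3.92), and with the region on the gene start in both libraries 2.53-fold (1.38 to 4.80). It was the only one of the 9 past 2-fold, against 15.5% of all promoters higher and 2.26% lower and a median of 1.26-fold, and it fell under 2-fold once the libraries were scaled to promoters open in all. Uhrf1 lay just under the limit at 1.95-fold (1.21 to 3.18), followed by Dnmt3a at 1.83-fold (0.914 to 3.77) and Tet2 at 1.62-fold (0.968 to 2.74). Dnmt3b (1.06-fold) and Tet1 (1.05-fold) showed no difference beyond counting error, with intervals of 0.506 to 2.20 and 0.564 to 1.94. The Tet1 value is that of the internal TSS 33.8 kb into the gene and does not describe its gene start, which had no promoter region. Near that start, an element 0.9 kb inside the gene was called in iPSCs alone, at 0.828 CPM (22 tags). With the element at the gene start in both libraries, Dnmt3a was at 1.61-fold (0.825 to 3.22) and Dnmt3b at 1.19-fold (0.573 to 2.49). Tdg was lower in CPM at 0.746-fold (0.434 to 1.26), and relative to the median of all promoters its change was -0.76 on the log2 scale, at percentile 7.29.

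**Figure D2:**
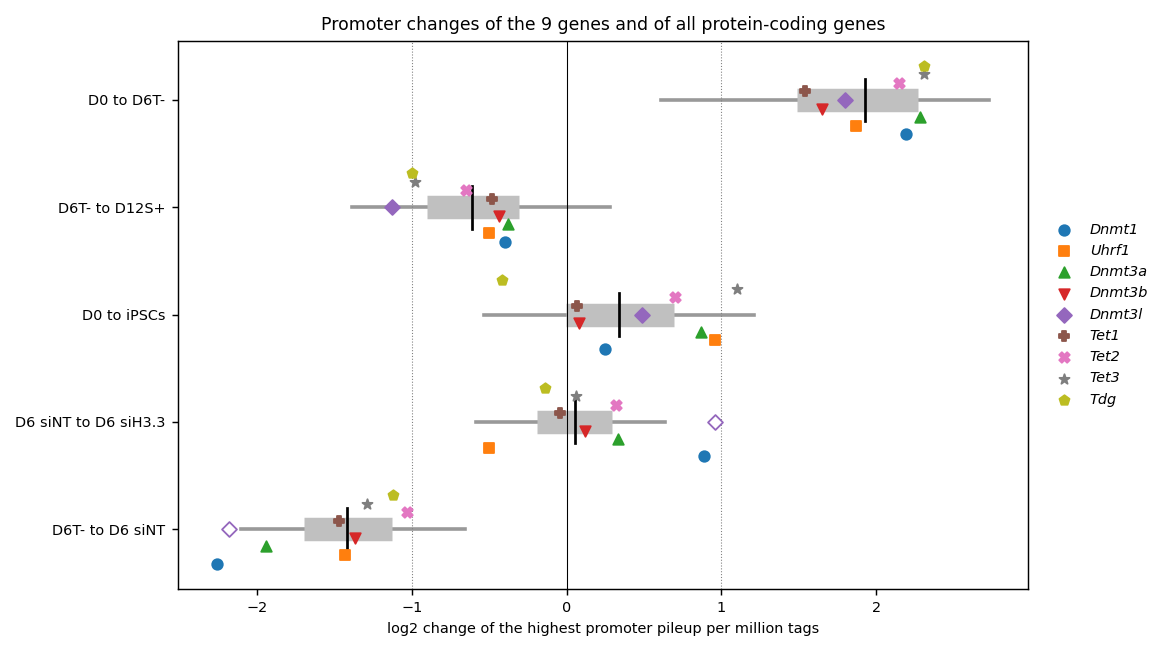
Log2 change of the highest promoter pileup per 1000000 tags (x axis) in 5 comparisons of 2 libraries (y axis); coloured symbols are the 9 genes (open where 1 library had no region and its lowest pileup called stands in), thick grey bars the 25th to 75th percentile of all protein-coding promoters, thin grey lines their 5th to 95th percentile, black ticks their median and dotted lines 2-fold. The genes follow the shift of all promoters, with medians of 1.93 from D0 to D6T- and -1.42 from D6T- to D6 siNT.

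The knockdown of H3.3, which the study describes as transient and limited to early reprogramming, was set against D6 siNT. None of the 9 promoters passed 2-fold in either direction, against 0.936% of all promoters higher and 0.905% lower in D6 siH3.3. Dnmt1 was the furthest from 1 among those with a region in both libraries, with 1.45 CPM in D6 siH3.3 and 0.780 CPM in D6 siNT, or 1.85-fold (0.974 to 3.62). Uhrf1 lay on the other side at 0.708-fold (0.364 to 1.34), and Dnmt3l, with 15 tags in D6 siH3.3 and no region in D6 siNT, was at least 1.94-fold higher against the lowest pileup called. Tet1 was at 0.972-fold (0.456 to 2.04), Tet3 at 1.04-fold (0.583 to 1.85) and Tdg at 0.908-fold (0.612 to 1.34). None of the 8 genes with a region in both libraries, Dnmt1 included, differed beyond counting error. The Dnmt1 ratio rests on the same D6 siNT value, of 17 tags, as its fall from D6T- to D6 siNT given above.

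Regions of the 7 time-course libraries that overlapped were joined into elements, which gave 127 in the 9 loci and 130535 in the loci of all protein-coding genes. Of the 127, 30 lay in a promoter window, 11 further upstream and 86 inside the genes. Late-only elements, called in D12S+, D16S+ or iPSCs and in none of D0, D3, D6T- and D9T-, numbered 34 (26.8%), against 12.4% of all elements. Early-only elements numbered 57 (44.9%) against 57.2%, and 11 (8.66%) were called in all 7 libraries against 8.82%. The late-only elements were spread unevenly, with 11 at Tet1, 8 at Dnmt3a, 4 each at Dnmt3b and Dnmt3l, 3 at Tet3, 2 at Tet2, 1 each at Dnmt1 and Uhrf1 and 0 at Tdg. Many rested on 1 library, since 20 of the 127 elements were called in iPSCs alone (15.7%, against 6.62% of all elements).

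**Figure D3:**
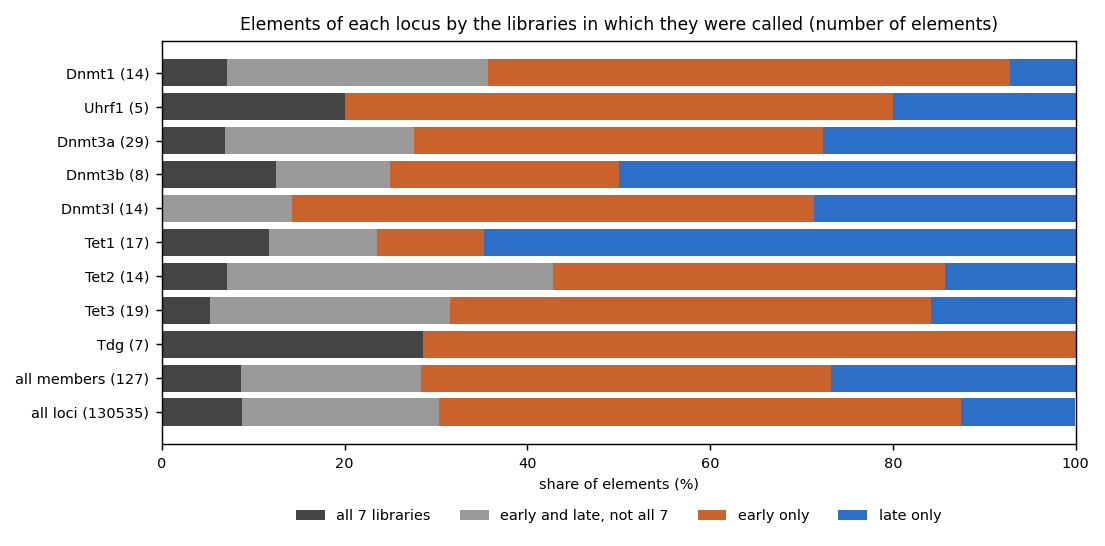
Share of the elements of each locus (x axis, %) by the libraries that called them, for the 9 genes, their sum and all protein-coding loci (y axis, with the number of elements). Late-only elements, in blue, make up 11 of 17 at Tet1 and none of the 7 at Tdg.

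A late-only element can be 1 weak region, so the elements called in all 3 late and no early library are given in full. There were 5 of them among the 127 (3.94%, against 1.35% of all elements), and 4 lay in Tet genes. The strongest was in an intron of Tet2, 10.1 kb after the start (chr3:133196091-133197523), whose central letters with the Klf match are printed above. It measured 2.16 CPM in D12S+ (38 tags), 2.22 CPM in D16S+ (47 tags) and 1.73 CPM in iPSCs (46 tags) and was not called in the 4 early or the siRNA libraries. Even the lowest of the 3 values was 3.27 times the highest detection limit of the early libraries. Within a library, where scale plays no part, this intron was about as open as the Tet2 promoter, with a ratio of 0.864 (0.544 to 1.36) in D12S+, 0.855 (0.566 to 1.28) in D16S+ and 1.21 (0.771 to 1.91) in iPSCs.

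A second late-only element of Tet2, 25.4 kb after the start (chr3:133181489-133182117), measured 0.625 CPM in D12S+, 1.09 in D16S+ and 0.941 in iPSCs. Between both, 19.7 kb after the start, an element absent at D0 appeared with 0.397 CPM at D3 and 1.87 CPM in D6T- and stayed through D9T- (1.29), D12S+ (1.42), D16S+ (0.992) and iPSCs (0.865). It was also called in D6 siH3.3 (1.39 CPM) and D6 siNT (0.918 CPM), so the Tet2 introns held both an opening of the early phase and openings of the SSEA-1-positive cells.

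At Tet3 the late-only intron element 19.7 kb after the start (chr6:83371647-83372271) measured 1.14 CPM in D12S+, 1.42 in D16S+ and 0.941 in iPSCs. Its ratio to the Tet3 start region was 0.714 (0.381 to 1.31), 1.07 (0.619 to 1.86) and 0.694 (0.400 to 1.19). The intron element 6.3 kb after the start (chr6:83385117-83385558) was called at D0 (0.504 CPM), D3 (0.662), D6T- (1.45) and D9T- (0.530) and later in no library, and 10 of the 19 elements of Tet3 were early-only, against 57.2% of all elements. The other late-only elements of Tet3, 71.3 and 73.6 kb after the start, were called in iPSCs alone at 0.527 and 0.602 CPM.

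At Tet1 the element 6.2 kb after the start (chr10:62355328-62355964) measured 1.08 CPM in D12S+, 0.803 in D16S+ and 0.865 in iPSCs. Its ratio to the region at the internal TSS was 0.655 (0.347 to 1.21) in D12S+ and 1.05 (0.557 to 1.97) in iPSCs, and these intervals overlap. The strongest element of the locus lay 47.9 kb after the start (chr10:62313590-62314730), with the AP-1 match printed above. It measured 1.04 CPM at D0, 2.18 at D3, 4.25 in D6T-, 0.605 in D9T- and 0.965 in D12S+, with 0.857 in D6 siH3.3 and 0.643 in D6 siNT, and was not called in D16S+ or iPSCs. Against the internal TSS region of the same library it stood at 1.32 (0.761 to 2.32) at D0, 1.61 (1.07 to 2.44) at D3, 1.86 (1.30 to 2.68) in D6T-, 0.889 (0.298 to 2.60) in D9T- and 0.586 (0.302 to 1.10) in D12S+. In the siRNA libraries of day 6 the ratio was 1.07 (0.494 to 2.32) in D6 siH3.3 and 0.778 (0.358 to 1.66) in D6 siNT. The interval of D6T- does not overlap that of D12S+, but the value of D6 siNT, from the same day as D6T-, lay close to that of D12S+.

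**Figure D4:**
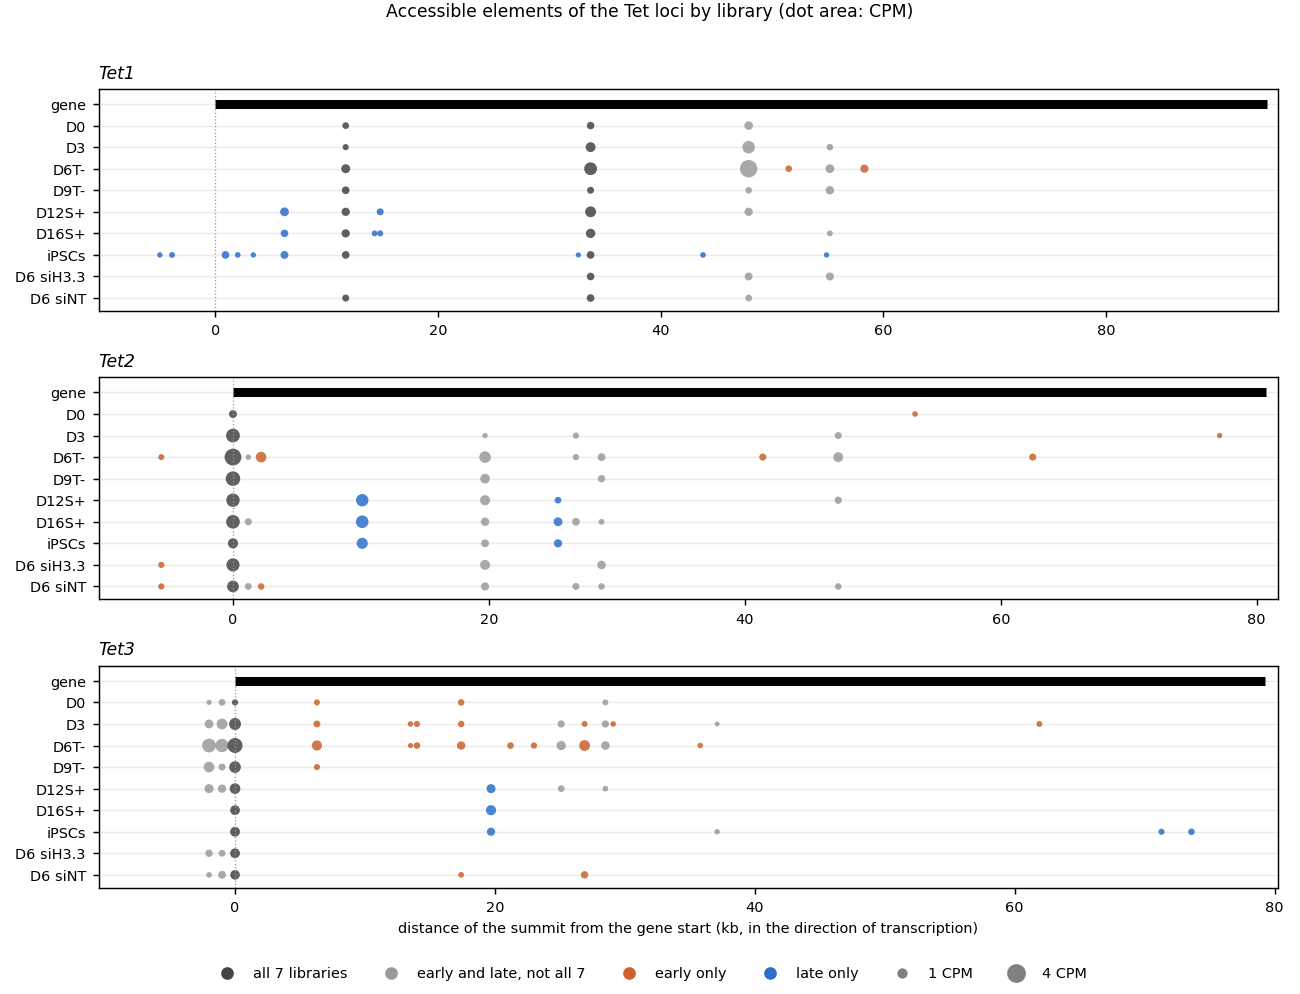
Accessible elements of Tet1, Tet2 and Tet3 (x axis, kb from the gene start in the direction of transcription, black bar the gene) in each of the 9 libraries (y axis); dot area is proportional to CPM and colour gives the libraries that called the element, with the siRNA libraries drawn at the time-course elements they overlap. The late-only Tet2 dot at 10.1 kb is 1.73 to 2.22 CPM in D12S+, D16S+ and iPSCs, and the Tet1 dot at 47.9 kb is gone in D16S+ and iPSCs.

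In iPSCs Tet1 had further weak elements around its start, at 0.414 to 0.828 CPM, which were called in no other library. They lay 5.0 and 3.9 kb upstream and 0.9, 2.0 and 3.4 kb inside the gene. With 11 to 22 tags each, all but the element at 0.9 kb were near the detection limit of 0.376 CPM. The window 3.9 kb upstream was the only one of the 127 with an Oct match.

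The de novo methyltransferases had late-only elements too, all of them weaker than that of Tet2. At Dnmt3b the intron element 2.3 kb after the start (chr2:153477410-153477832) measured 0.568 CPM in D12S+ (10 tags), 0.520 in D16S+ (11 tags) and 0.527 in iPSCs (14 tags), which is 0.981 to 1.07 times the detection limit of D9T-. It lies, like the start of Dnmt3b, in the promoter window of the neighbouring gene 7530422B04Rik. Upstream of the gene, elements at 9.9 kb (0.568 CPM in D12S+, 0.376 in iPSCs) and 6.2 kb (0.472 CPM in D16S+, 0.414 in iPSCs) were late-only as well. At Dnmt3l the pair before the internal start cluster lay 6.4 kb after the start (0.681 CPM in D12S+, 0.640 in iPSCs) and 7.7 kb after it (0.708 CPM in D16S+, 0.752 in iPSCs).

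Dnmt3a had 29 elements, the most of the 9 genes, of which 13 were early-only and 8 late-only. An intron element 65.8 kb after the start was called in all 7 time-course libraries at 0.473 to 1.29 CPM. One 17.5 kb after the start measured 0.410 CPM at D0, 1.82 in D6T-, 1.21 in D9T- and 0.614 in D16S+ and was not called in iPSCs.

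Dnmt1 and Uhrf1 had 1 late-only element each, both called in iPSCs alone, and Tdg had 0. At Uhrf1 an element over a coding exon 13.7 kb after the start was called at D3 (1.09 CPM), D6T- (1.45) and D9T- (0.908) and in D6 siH3.3 (0.803) and D6 siNT (0.505), and in no late library. At Dnmt1, 8 of 14 elements were early-only, close to the 57.2% of all elements, and an intron element 9.3 kb after the start went from 0.568 CPM at D0 to 1.92 in D6T-, 0.852 in D12S+ and 0.715 in iPSCs, with no region in D16S+. All 5 Tdg elements that were not shared by the 7 libraries were early-only. The element 6.5 kb upstream of Tdg, at 1.10 to 6.59 CPM in all 7, covers the start of the neighbouring gene 1190007I07Rik and cannot be assigned to Tdg.

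**Figure D5:**
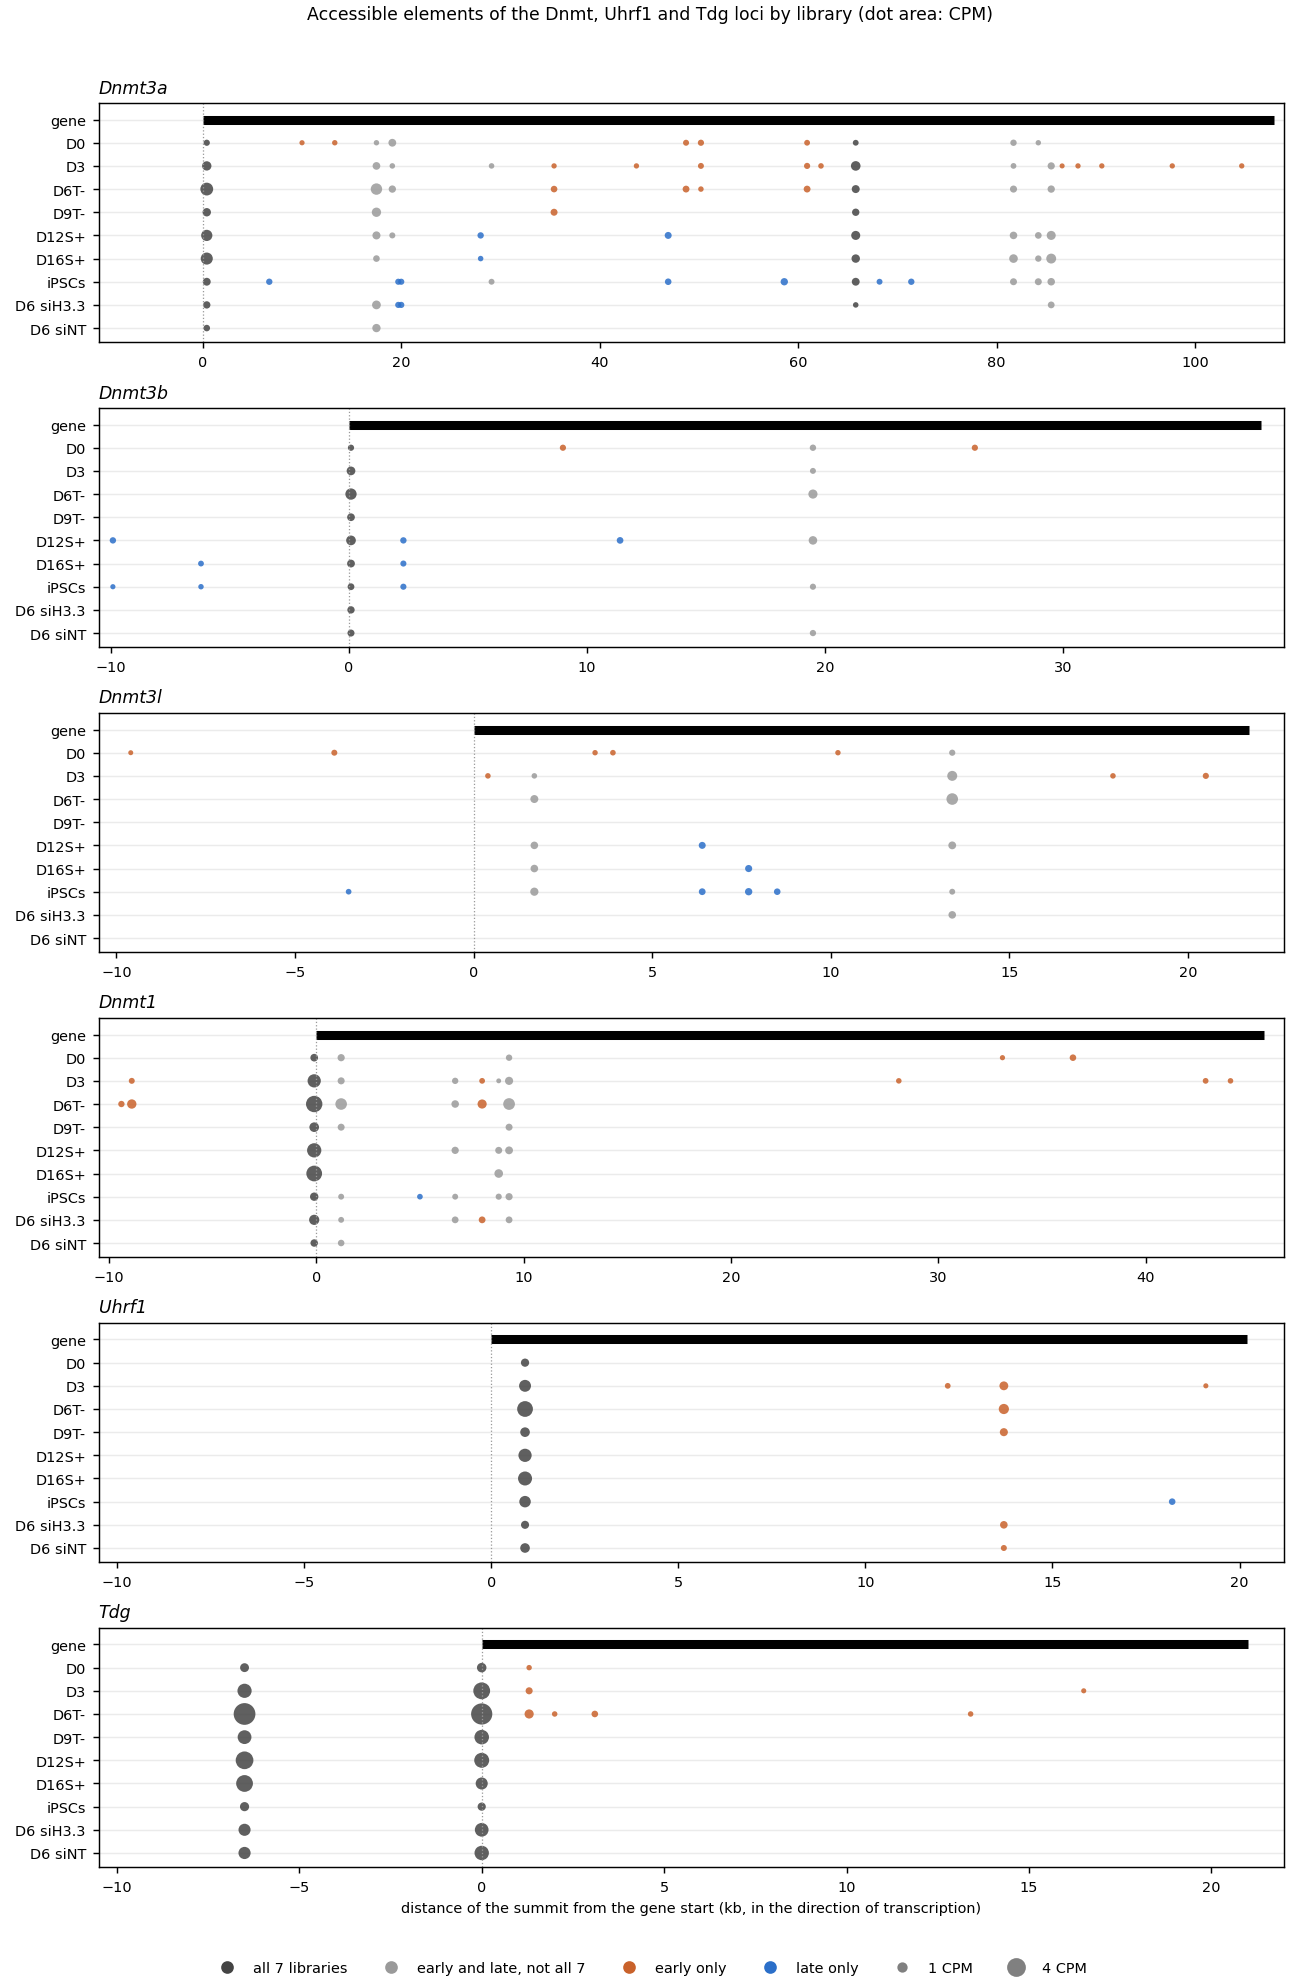
Accessible elements of Dnmt3a, Dnmt3b, Dnmt3l, Dnmt1, Uhrf1 and Tdg, drawn as for the Tet loci (x axis, kb from the gene start; y axis, library; dot area, CPM; colour, the libraries that called the element). Dnmt3l has blue late-only dots at 6.4, 7.7 and 8.5 kb and a grey dot at 13.4 kb that is largest in D6T-, at 1.87 CPM.

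In the siRNA libraries 26 (D6 siNT) and 27 (D6 siH3.3) of the 127 elements were called, of which 18 were shared. That is 69.2% of the D6 siNT and 66.7% of the D6 siH3.3 elements, against 80.2% and 80.0% over all protein-coding loci. Of the 58 elements called in D6T-, 26 (44.8%) were also called in D6 siNT, against 35.1% over all loci. Of the 34 late-only elements, 2 neighbouring ones of Dnmt3a, 19.7 and 20.0 kb after the start, were called in D6 siH3.3 (0.536 CPM each) and not in D6 siNT. The others were called in neither siRNA library.

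Elements differed in base composition by class. The 11 elements called in all 7 libraries had a median GC content of 68.3% and a median CpG ratio (observed over expected) of 0.717, while the late-only ones had 52.0% and 0.190 and the early-only ones 51.3% and 0.203. Over all loci the late-only elements had 52.3% and 0.242, the early-only ones 49.0% and 0.187 and those in all 7 libraries 64.0% and 0.779. The higher values of elements called in all 7 libraries are thus shared by all loci and not particular to these genes. Over windows of 300 bases the AP-1 motif was found in 12 of 57 early-only and 3 of 34 late-only elements of these genes, and in 32.0% and 7.16% of all early-only and late-only elements. The Klf motif was found in 5 of 57 and 8 of 34, against 11.8% and 19.5% of all. Oct was found in 1 of the 127 elements, Oct-Sox and CTCF in 0, and Nrf1, E2F and CRE in 1 each, against 0.667% (E2F) to 1.88% (Oct) of all elements for these 6. A match is a description of the letters and not a bound site.

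Of 30 related genes in a list (partners of maintenance, methyl-CpG readers, base excision repair, deaminases and Gadd45, Tet partners and methylation protectors), 27 had a promoter region at D0 and 27 in iPSCs, where the shares of all genes were 58.0% and 63.9%. Of these 30 genes 6 were at least 2-fold higher in iPSCs than at D0 and 1 was lower, against 15.5% and 2.26% of all promoters, with a median log2 change of 0.44 over the 25 with a region in both, against 0.34 for all genes. Dppa3, which protects the maternal genome from Tet3, had no region within 3 kb upstream at D0, D3 or D6 siNT and measured 0.841 CPM in D6T-, 1.06 in D9T-, 1.08 in D12S+, 0.897 in D16S+, 1.43 in iPSCs and 0.482 in D6 siH3.3, at least 4.12-fold higher in iPSCs than the lowest pileup called at D0. Cxxc5, a CXXC-domain partner of Tet2, rose from 0.410 to 1.09 CPM (2.66-fold, 1.34 to 5.58). Gadd45a, a stress-response gene linked to demethylation, went from 1.26 to 3.31 CPM (2.62-fold, 1.79 to 3.92) and Mbd2, a methyl-CpG binding protein, from 0.788 to 2.07 CPM (2.62-fold, 1.61 to 4.40). Mbd1, of the same protein family, was the gene that fell, from 1.73 to 0.752 CPM (0.434-fold, 0.246 to 0.736). In the other comparisons 29 of the 30 were higher from D0 to D6T- (84.5% of all promoters), 6 were lower from D6T- to D12S+ (20.0%), 27 were lower from D6T- to D6 siNT (78.2%), and 1 was lower in D6 siH3.3 than in D6 siNT (0.905%). Counts this close to those shares are no result about the list.

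The promoter profiles of other genes resembled those of the 9 closely, and all promoters share the scale of each library. Over the 9 libraries and 9810 promoters open in all of them, the median Pearson r of log2 values with a gene of the group was 0.700 (Dnmt3l) to 0.854 (Dnmt3b). The closest pairs were Mapkapk5 (0.992) and Cbll1 (0.990) for Dnmt1, Usp49 (0.989) and Zfp410 (0.985) for Uhrf1, and Isyna1 (0.993) and Ncoa2 (0.993) for Dnmt3a. Mapkapk5 encodes a protein kinase and Ncoa2 a nuclear receptor coactivator. For Dnmt3b they were Aldh4a1 (0.993) and Sdhb (0.991), and for Dnmt3l Arl8a (0.985) and Kcnk10 (0.985). For the Tet genes they were Ptbp1 (0.995) and Ccdc115 (0.991) for Tet1, Edem1 (0.990) and Eepd1 (0.986) for Tet2, and Kalrn (0.976) and Mrpl9 (0.975) for Tet3. Ptbp1 encodes a splicing regulator and Mrpl9 a mitochondrial ribosomal protein. Tdg was closest to Mapk8 (0.993) and Cdk8 (0.990). These values describe 9 single libraries (7 with a region for Dnmt3l), and nothing further is read from the names.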

How the data were processed

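ATAC-Seq peak files of 9 libraries were used, 1 per condition as the labels give it. The authors mapped reads with STAR to mm9, removed duplicates with Picard and called peaks with MACS2 2.1.0.20151222 set to keep remaining duplicates, with no control sample and 0.05 as the q-value limit, per the file headers. For each summit the deposited files give the pileup, a signal that counts tags extended to 200 bp and is not scaled for depth, together with the fold enrichment, a ratio to the mean tag density of the genome, and the −log10 of the q-value.

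Within a library, peaks that overlapped were joined into 1 region, whose highest pileup was given per 1000000 of the total tags in the file header (CPM). Because MACS2 was run on the whole genome background, the lowest pileup called is a detection limit of the library. Gene models were those of GENCODE vM1 for mm9 (22 chromosome names matched and 0 regions passed a chromosome end). A change in a promoter was called at 2-fold, and where 1 library had no region its lowest pileup called stood in, so that the fold is a bound. Genes named in the text were the 9 members, the related genes past 2-fold from D0 to iPSCs (the top 3 each way by fold, with Gadd45a and Mbd2 equal for the third place to the digits given), the 2 genes most like each member, and neighbours whose promoter lies in a window. Elements are regions of the 7 time-course libraries joined by 1 bp of overlap. Intervals are 95% exact Poisson intervals for a value and conditional Clopper-Pearson intervals for a ratio of 2 pileups. Highest pileups are picked maxima of tags that are not all independent molecules, so the intervals are too narrow. The members and lists were chosen with earlier results of these data known.

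The functions were tested on simulated data with planted changes. Alternatives were other promoter windows, a summit in the window, stricter or equal numbers of regions, scaling by the median ratio of 9818 promoters open in all libraries, the deposited fold enrichment, other folds, other ways of joining elements and leaving out D9T-. Python 3.11.15, numpy 2.4.6, pandas 2.3.3, scipy 1.17.1 and matplotlib 3.10.9 were used. Data other than ATAC-Seq were not analysed here.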

Additional observations from a re-analysis of the deposited data

How the results depend on the processing

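Scaling the libraries by the median ratio of shared promoters brought the counts past 2-fold to 0, from 9 higher for D0 to D6T-, from 2 lower for D6T- to D12S+, from 1 higher for D0 to iPSCs and from 9 lower for D6T- to D6 siNT. Under it the log2 change turned to -0.17 for Uhrf1, -0.40 for Dnmt3b, -0.24 for Dnmt3l and -0.50 for Tet1 from D0 to D6T-. From D6T- to D12S+ it turned to 0.01 for Tet2, 0.26 for Dnmt1, 0.16 for Uhrf1, 0.28 for Dnmt3a, 0.22 for Dnmt3b and 0.18 for Tet1. From D6T- to D6 siNT it turned to 0.03 for Uhrf1, 0.09 for Dnmt3b, 0.43 for Tet2, 0.17 for Tet3 and 0.34 for Tdg. Signs from D0 to iPSCs under this scaling are not listed here. By construction this scaling removes the shift that all promoters share. With the gene start alone 6 or 7 members had a region in each library (Dnmt3l and Tet1 in none, Dnmt3a in D16S+ alone), the log2 change of Uhrf1 from D6T- to D12S+ was 0.24 in place of -0.50, and 1 member (Tdg) was 2-fold lower from D6T- to D12S+. With a summit required in the window 5 members had a region in D9T-, and Dnmt1, whose summit moved across its start, was 1 member lower from D0 to iPSCs. At 1.5-fold 4 members were lower from D6T- to D12S+, 4 higher from D0 to iPSCs and 2 higher from D6 siNT to D6 siH3.3 (Dnmt1 and Dnmt3l). The median of all promoters from D6T- to D12S+, 0.654-fold, itself passes 1.5-fold. Counts with the gene start alone, with a summit required or at 1.5-fold have no share of all promoters beside them. They are no result about the genes. With a −log10 q of at least 5 there were 15 late-only (22.7%, against 11.8% of all elements), 26 early-only (39.4% against 54.3%) and 6 elements in all 7 libraries (9.09% against 10.2%). With the 36708 strongest regions of each library there were 21 late-only (40.4% against 27.3%), 11 early-only (21.2% against 32.7%) and 6 in all 7 libraries (11.5% against 15.6%). Fewer regions enter both settings. Of 150 values of these counts under alternatives 134 stayed within 1.5 times. Leaving out a replicate and a paired fit could not be run. No paired analysis was possible because each condition has 1 library.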
